A study of Homo sapiens with 6 samples.

Results

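Intestinal epithelial cells keep their identity through a small set of transcription factors, and 8 of these were followed here in a colorectal cancer line: the caudal homeobox factors CDX1 and CDX2, the nuclear receptor HNF4A, the Krüppel-like zinc finger factors KLF4 and KLF5, the zinc finger factor GATA6, and the epithelium-specific ETS factors ELF3 and EHF. They were chosen by name, as the rows of the count tables whose Ensembl identifier carries one of these symbols, out of 63677 identifiers, and all 8 were found. Reads came from SW480, an established cell line of a human colorectal adenocarcinoma, in an experiment that asked which transcripts change when POU5F1B, a retrogene copy of the pluripotency gene POU5F1, was overexpressed. The control group held 3 libraries of SW480 cells transduced with a doxycycline-inducible vector for green fluorescent protein (GFP), and the other group held 3 libraries of SW480 cells with the same kind of vector for POU5F1B. Both groups received 1 µg/mL doxycycline for 72 h, so induction and drug were shared and the encoded protein differed. The transduced cells had been selected with puromycin, and the vectors added an HA tag to both proteins per the study's methods. Since the labels do not say whether libraries came from separate cultures, p-values measure only the spread between these libraries, which may be technical.

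As background, CDX2 and HNF4A bind enhancers of genes used by mature enterocytes and colonocytes, and CDX2 is the factor that sets intestinal fate in the embryonic gut. CDX1 is its close relative with roles in crypt patterning and differentiation, while GATA6 acts in crypt proliferation and in secretory lineages. KLF4 is found in differentiated cells at the top of the crypt and in goblet cells, whereas KLF5 is found in dividing crypt cells. ELF3 and EHF bind GGAA-containing sequences through an ETS domain and serve epithelial differentiation in many organs.

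The libraries held 10767947 to 12787637 counts. POU5F1B, the check of the labels, had 6, 5 and 1 counts in GFP replicates 1, 2 and 3 and 15027, 11393 and 1458 in POU5F1B replicates 1, 2 and 3, so its level was far lower in the last of these libraries. GFP replicate 3 stood apart from the others: its counts differed from GFP replicates 1 and 2 with a chi-square per degree of freedom of 89.5 and 78.7, against 4.21 between replicates 1 and 2. POU5F1B replicate 3 also differed from its replicates 1 and 2 (17.5 and 20.9, against 5.38). Epithelial markers were present throughout, with KRT18 at 2911 to 3959 CPM (counts divided by the TMM-scaled library total and expressed on one common scale), and 10 of the 12 listed markers passed the filter on low counts, while CEACAM5 had at most 3 counts in a library and CDH17, the intestinal cadherin, had 77 and 24 counts in the replicate 3 libraries and at most 1 elsewhere. Markers of immune cells were low and summed to 1.75 to 3.11 CPM in GFP and 2.87 to 5.4 CPM in POU5F1B libraries, with CD3D, MS4A1 and CD68 at 0 in all 6. The fibroblast list summed to 28.0 to 171 CPM in GFP and 13.4 to 23.0 CPM in POU5F1B libraries, most of it COL1A1 and PDGFRB, with COL3A1, FAP and POSTN at 0. COL1A1, at 141 and 118 CPM in GFP replicates 1 and 2, was above the epithelial marker EPCAM there (86.6 and 89.2 CPM). The endothelial list summed to 1.39 to 6.14 and 2.66 to 6.51 CPM. Results that rest on the replicate 3 libraries are given with and without them.

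With limma voom over all 6 libraries, 0 of the 6 tested factors passed the threshold of an adjusted p under 0.05 and a fold change above 2. Among all 14286 tested genes 0% passed too. POU5F1B itself was not called by this test (adjusted p = 0.252), although it was estimated 10.73 log2 units higher, with a standard error of 2.78. The study reports enough upregulated genes in SW480 cells to search them for shared annotation terms. A result of 0 in this fit therefore does not show that no gene changed. At an unadjusted p under 0.05 there were 2 of 6 factors, ELF3 and EHF, against 11.9% of all genes. The quasi-likelihood test of edgeR also called 0 genes past the threshold, with 12% at an unadjusted p under 0.05. DESeq2 called 1.63% and limma voom with sample quality weights 7.54% of all genes, ELF3 and EHF among them in both. With no filter on low counts 0.015% of genes passed, with the replicate number as a block 0.007%, and without POU5F1B replicate 3 0.035%, and 0 factors in each. The 2 factors without a test, CDX1 and GATA6, fell under the filter on low counts. The groups did not overlap for the same 2 of 6 factors, against 19.4% of all tested genes, of which 10.2% were higher and 9.24% lower with POU5F1B.

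**Figure D1:**
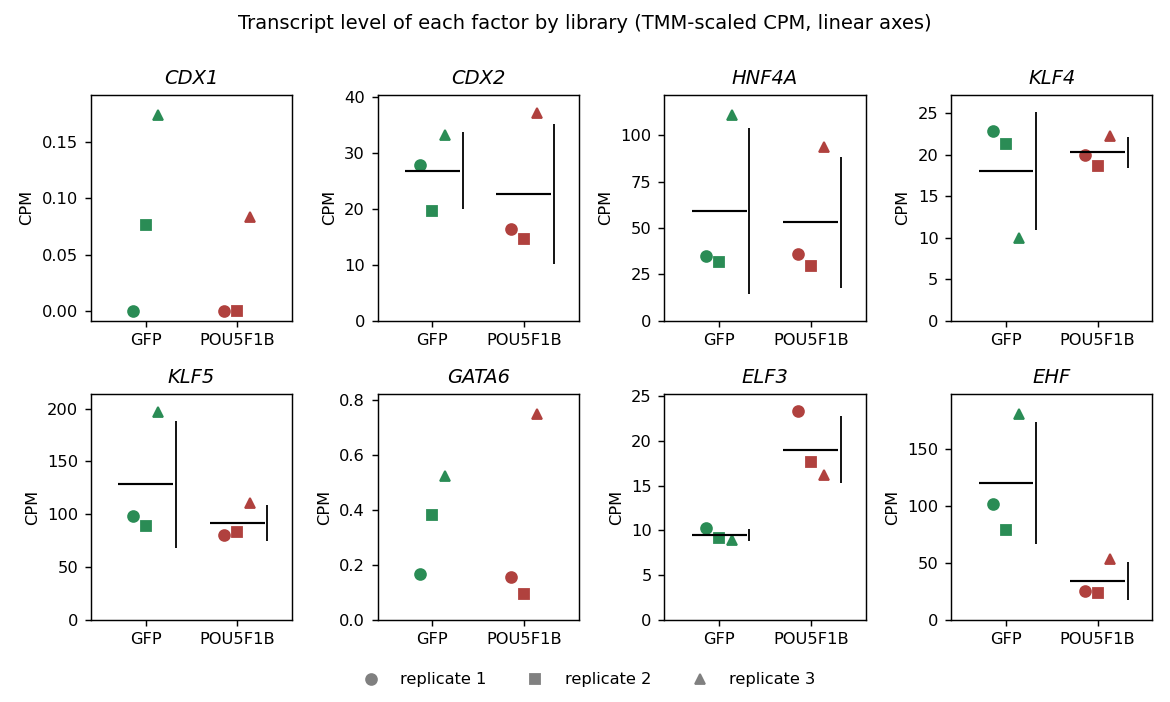
Level of each of the 8 factors in CPM on linear axes, 1 panel per gene, with GFP libraries in green and POU5F1B libraries in red. The marker shape gives the replicate number, the horizontal line is the group mean and the vertical line is ± 1 SD (n = 3), both left out for CDX1 and GATA6. The groups separate for ELF3, higher with POU5F1B, and for EHF, lower with POU5F1B, while CDX2 and HNF4A are highest in the replicate 3 libraries of both groups.

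The order of the levels was described first, on a scale of CPM per kilobase of exon, since raw counts favour long genes. KLF5 was the most abundant factor, with a median of 25.5 CPM per kilobase over the 6 libraries and a range of 21.9 to 53.5. EHF followed with a median of 9.99 and a range of 3.59 to 27.3, and it lay below KLF5 in 6 of 6 libraries although the ranges overlap. CDX2 had a median of 6.70 (4.15 to 10.5), KLF4 of 5.64 (2.70 to 6.27) and HNF4A of 3.48 (2.91 to 10.9) CPM per kilobase. These 3 were not separable in order, as CDX2 exceeded KLF4 in 3 of 6 libraries and KLF4 exceeded HNF4A in 4 of 6. The place of EHF depended on the group: it exceeded CDX2 in 3 of 3 GFP libraries and in 0 of 3 POU5F1B libraries. ELF3 was lower, with a median of 1.84 (1.24 to 3.24) CPM per kilobase. GATA6 (0.0243 to 0.197) and CDX1 (at most 0.0978) were at the limit of detection, with no overlap between ELF3 and GATA6. The exon lengths join all annotated transcripts of a gene, 17 in the case of HNF4A and 1 in the case of CDX1, so the levels of genes with long rare transcripts are understated on this scale.

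The ETS factor EHF (ENSG00000135373; chromosome 11, 34642640 to 34684835, plus strand, GRCh37) differed most between the groups. EHF had 102, 78.8 and 181 CPM in GFP replicates 1, 2 and 3, and 25, 23.8 and 53.4 CPM in POU5F1B replicates 1, 2 and 3. Every POU5F1B library lay below every GFP library, and within each group replicate 3 was the highest. The mean was 120 ± 53.5 CPM in GFP and 34.0 ± 16.8 CPM in the POU5F1B libraries (SD, n = 3). The log2 fold change was -1.83 ± 0.42 (SE; 95% interval -2.83 to -0.82), or 3.55-fold lower, and it did not pass with limma voom (adjusted p = 0.227). Between libraries of the same replicate number the log2 difference was -2.02, -1.72 and -1.76, of like size in each. POU5F1B itself was much lower in POU5F1B replicate 3, and a relation of EHF to its level was not tested. A difference below -1 in all 3 replicate numbers was found for 0.763% of all tested genes. That share was read only in the direction of EHF, and it is a description rather than a test. Without GFP replicate 3, EHF fell by 1.5 on the log2 scale (limma voom adjusted p = 0.0246), where 4.16% of all genes passed. With replicates 1 and 2 only it fell by 1.88 (limma voom adjusted p = 2.93e-06), where 8.36% of all genes passed; over 16 alternatives its adjusted p ranged from 2.93e-06 to 0.933.

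ELF3 (ENSG00000163435; chromosome 1, 201977073 to 201986311, plus strand), the near relative of EHF, differed in the opposite direction. ELF3 had 10.3, 9.20 and 8.94 CPM in GFP replicates 1, 2 and 3, and 23.3, 17.6 and 16.2 CPM in POU5F1B replicates 1, 2 and 3. The GFP libraries lay close together, GFP replicate 3 included, and all POU5F1B libraries were above them. Means were 9.47 ± 0.696 CPM in GFP and 19.0 ± 3.77 CPM in the POU5F1B libraries (SD, n = 3), with a log2 fold change of 0.99 ± 0.21 (SE; 95% interval 0.49 to 1.49; limma voom adjusted p = 0.207). The log2 difference was 1.17, 0.92 and 0.85 within replicate numbers 1, 2 and 3. With replicates 1 and 2 only, ELF3 rose by 1.06 (limma voom adjusted p = 0.00135), and over 17 alternatives its adjusted p ranged from 0.00135 to 0.927. Its fold change lay next to the 2-fold limit: without GFP replicate 3 it was 0.95, with an adjusted p of 0.0342 from limma voom, and so not past the threshold. An antisense RNA, ELF3-AS1, overlaps 664 nt of ELF3 exons. It had 0 to 5 counts in GFP and 3 to 11 in POU5F1B libraries, against 103 to 297 for ELF3, and summing both left the log2 fold change at 1.00.

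Since both genes are read from the same library, their ratio does not depend on library scaling. EHF counts exceeded ELF3 counts by 9.94 (95% exact interval 8.25 to 12.1), 8.56 (7.09 to 10.4) and 20.2 times (16.6 to 24.9) in GFP replicates 1, 2 and 3. In POU5F1B replicates 1, 2 and 3 the ratio was 1.07 (0.911 to 1.26), 1.35 (1.12 to 1.64) and 3.30 (2.80 to 3.89). The highest POU5F1B ratio was thus below the lowest GFP ratio. The intervals hold the error of counting reads alone, without the spread between libraries. PCR copies of a molecule could not be told apart, so the intervals may be too narrow even for that. The pair of genes was chosen for its opposite directions after the values were seen, so no test was made of the ratio. The exon lengths of EHF and ELF3 are 6617 and 7186 nt, so the ratio per length is close to the ratio of counts.

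**Figure D2:**
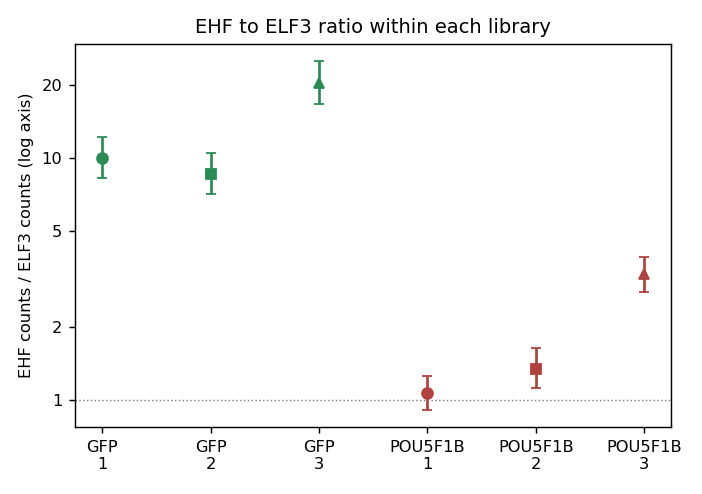
Ratio of EHF counts to ELF3 counts in each library, on a log axis, with exact 95% intervals for counting error; GFP libraries are green, POU5F1B libraries red, and the dotted line marks a ratio of 1. The GFP libraries sit between 8.56 and 20.2 and the POU5F1B libraries between 1.07 and 3.30.

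The sequence before the transcription start was then read for these genes, because POU5F1, the parent of POU5F1B, is known to bind the octamer ATGCAAAT. Per the study, POU5F1B accumulated in the cytoplasm, and chromatin immunoprecipitation did not find significant recruitment of it to the genome. Binding was not tested here. Start sites and sequences are from RefSeq (table build GRCh38.p14), and each stretch of 250 bases before a start was matched exactly to a single place in GRCh37, for 10 starts of 7 factors; CDX1 had no entry. The octamer was found on either strand in 2 of the 10 stretches, those of CDX2 and ELF3, against 1.63% of 35116 RefSeq stretches of the same length. The letters were searched after the stretches had been seen. The match is printed for both genes as 30 bases, with the octamer in capitals; it begins 107 bases before the CDX2 start and 128 bases before the ELF3 start.

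CDX2 octamer (chr13:28543541-28543570, minus strand): tatcttttaaaATGCAAATtatgtttcgag
ELF3 octamer (chr1:201979576-201979605, plus strand): tggcactgaatATGCAAATcacctggggcc

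Of these 2 genes, ELF3 was higher in each POU5F1B library and CDX2 was not. The stretch of ELF3 lies within an annotated longer ELF3 transcript, and part of it within an ELF3-AS1 exon. No octamer was found before either start of EHF, which says only that these letters are absent from these windows. For EHF, the sequence before both starts is shown because it is the gene with the largest difference among the factors; in the second, bases that form part of an annotated EHF transcript were left out. Capitals mark CATAAA, part of the site known for CDX factors, on either strand; it was found in 1 of the 10 stretches against 9.64% of all.

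EHF, first start (chr11:34645554-34645803, plus strand): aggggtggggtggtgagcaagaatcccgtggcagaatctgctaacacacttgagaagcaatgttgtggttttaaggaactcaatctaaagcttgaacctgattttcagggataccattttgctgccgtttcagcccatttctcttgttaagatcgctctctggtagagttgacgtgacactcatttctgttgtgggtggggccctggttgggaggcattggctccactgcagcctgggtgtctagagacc
EHF, second start (chr11:34653863-34654010, plus strand): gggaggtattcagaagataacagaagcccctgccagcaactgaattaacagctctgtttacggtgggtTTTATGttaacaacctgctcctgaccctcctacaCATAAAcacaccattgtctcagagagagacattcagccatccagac

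The counts per gene do not tell which start was used. The other letters searched, AGATAAG for GATA factors, CGGAAG for ETS factors and CAAAGTCCA for HNF4 factors, on both strands, were in none of the 10 stretches, against 2.36%, 16.5% and 0.325% of all stretches.

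CDX2 (ENSG00000165556; chromosome 13, 28535055 to 28543452, minus strand), the regulator of intestinal fate, was expressed in every library. CDX2 had 27.7, 19.5 and 33.1 CPM in GFP replicates 1, 2 and 3, and 16.3, 14.6 and 37 CPM in POU5F1B replicates 1, 2 and 3. The highest value of all was in the POU5F1B group, in replicate 3, and the groups overlapped. The log2 fold change was -0.32 ± 0.38 (SE; 95% interval -1.24 to 0.59; limma voom adjusted p = 0.775), an interval that includes a 2-fold decrease. Within replicate numbers 1, 2 and 3 the log2 difference was -0.75, -0.41 and 0.16. With replicates 1 and 2 only, the log2 fold change was -0.58 (limma voom adjusted p = 0.0333), less than 2-fold and so not past the threshold, and 29.7% of all genes had an adjusted p under 0.05 there. Over 16 alternatives the adjusted p of CDX2 ranged from 0.0333 to 0.989.

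Its relative CDX1 (ENSG00000113722; chromosome 5, 149546341 to 149564121, plus strand) had 0, 1 and 2 counts in GFP and 0, 0 and 1 counts in POU5F1B replicates 1, 2 and 3. All are under the floor of 3 counts, which corresponds to 0.228 to 0.277 CPM, so CDX1 was not detectable at this depth in either group and no fold change is given. GATA6 (ENSG00000141448; chromosome 18, 19749550 to 19782491, plus strand) had 2, 5 and 6 counts in GFP and 2, 1 and 9 counts in POU5F1B replicates 1, 2 and 3. The highest GATA6 counts were again in replicate 3 of each group, and they are too few for a comparison. GATA6-AS1, an antisense RNA that overlaps 94 nt of GATA6 exons, had at most 1 count in a library.

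HNF4A (ENSG00000101076; chromosome 20, 42984339 to 43061485, plus strand), a nuclear receptor of enterocytes, colonocytes and hepatocytes, varied more between replicates than between groups. HNF4A had 34.9, 31.4 and 111 CPM in GFP replicates 1, 2 and 3, and 35.9, 29.6 and 93.8 CPM in POU5F1B replicates 1, 2 and 3. Replicates 1 and 2 were close in both groups, and replicate 3 stood far above them in both. The log2 fold change was -0.07 ± 0.61 (SE; 95% interval -1.51 to 1.37; limma voom adjusted p = 0.978). Within replicate numbers 1, 2 and 3 the log2 difference was only 0.04, -0.08 and -0.24, and with replicates 1 and 2 it was -0.02 ± 0.14 (SE). Leaving out a single replicate 3 library unbalances the groups, and the log2 fold change was then 0.49 without GFP replicate 3 and -0.58 without POU5F1B replicate 3. HNF4A is made from 2 RefSeq starts 45540 nt apart, which the counts do not tell apart. The antisense gene HNF4A-AS1 had 0 counts in all 6 libraries.

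The Krüppel-like factors were compared next. KLF5 (ENSG00000102554; chromosome 13, 73629114 to 73651679, plus strand), a factor of dividing crypt cells, had 98.7, 88.9 and 197 CPM in GFP replicates 1, 2 and 3, and 80.5, 83.4 and 111 CPM in POU5F1B replicates 1, 2 and 3. GFP replicate 3 alone stood high, and the groups overlapped. The log2 fold change was -0.40 ± 0.32 (SE; 95% interval -1.15 to 0.35; limma voom adjusted p = 0.654), with differences of -0.29, -0.09 and -0.83 within replicate numbers 1, 2 and 3. Without GFP replicate 3 it was -0.06.

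KLF4 (ENSG00000136826; chromosome 9, 110247133 to 110252763, minus strand), a factor of differentiated and goblet cells that is also used to reprogram cells together with POU5F1, had 22.9, 21.3 and 9.90 CPM in GFP replicates 1, 2 and 3. In POU5F1B replicates 1, 2 and 3 it had 20, 18.6 and 22.3 CPM. A partly overlapping antisense RNA, ENSG00000289987, was not analysed here. A single library, GFP replicate 3, was low, and the other 5 lay between 18.6 and 22.9 CPM. The log2 fold change was 0.25 ± 0.33 (SE; 95% interval -0.53 to 1.03; limma voom adjusted p = 0.795), and its sign rested on that library, as it was -0.13 ± 0.14 (SE) without it. GFP replicate 3 was thus the library with the most KLF5 and the least KLF4. The ratio of KLF5 to KLF4 counts was 19.9 (95% exact interval 16.5 to 24.2) there and 4.02 to 4.97 in the other libraries of both groups.

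**Figure D3:**
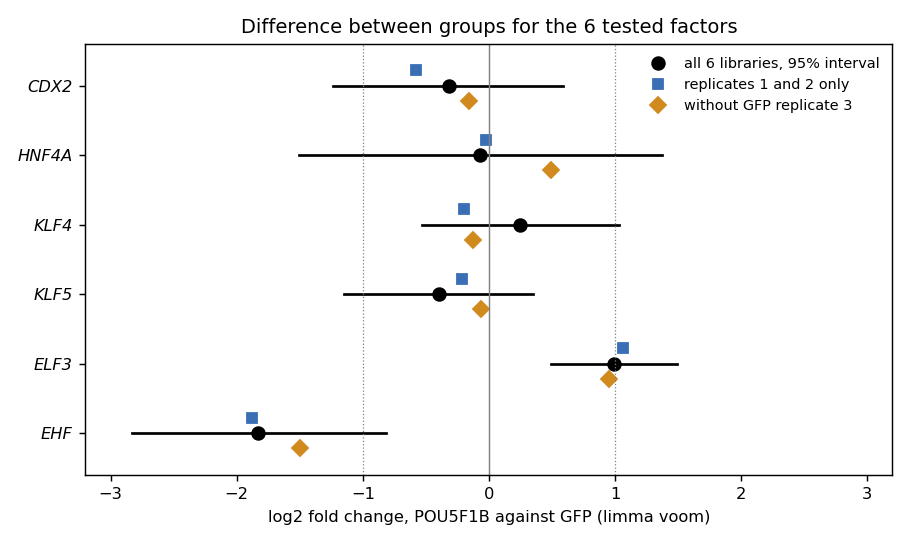
Log2 fold change of POU5F1B against GFP for the 6 tested factors from limma voom. Black points and bars give the value and 95% interval with all 6 libraries, blue squares replicates 1 and 2 only, orange diamonds the fit without GFP replicate 3, and dotted lines a 2-fold change. The intervals of CDX2, HNF4A, KLF4 and KLF5 include 0, whereas EHF (-1.83) and ELF3 (0.99) lie on opposite sides of 0 in each setting.

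Both replicate 3 libraries shared a shift for part of the factors. HNF4A was higher in replicate 3 than in the mean of replicates 1 and 2 by 1.74 (GFP) and 1.52 (POU5F1B) on the log2 CPM scale, and EHF by 1.01 and 1.13. These 2 of 6 factors exceeded 2-fold in both groups, as did 1.5% of all tested genes. Taken alone, 12.3% of all genes did so in GFP and 3.69% in POU5F1B cells. For CDX2 the shift was 0.51 and 1.25, for KLF5 1.07 and 0.44, for KLF4 -1.15 and 0.21, and for ELF3 -0.12 and -0.32. ELF3 thus had the smallest shift of the 6 in GFP cells. Most other genes of the lists did not share this shift: 3 of 23 tested regulators (ASCL2, ONECUT2 and MYB), 2 of 9 targets (VIL1 and ABCB1), 0 of 15 relatives and 1 of 10 epithelial markers (VIL1) exceeded 2-fold in both groups, and HES1 was lower in GFP replicate 3, by -3.39. The genes that follow were picked after their values were seen, for being high in both libraries, and HNF4G and PROX1 were under the filter on low counts. HNF4G, the paralog of HNF4A, had 2, 0 and 30 counts in GFP and 0, 0 and 6 in POU5F1B replicates 1, 2 and 3. PROX1, a homeobox factor, had 9, 8 and 1111 counts in GFP and 5, 7 and 250 in POU5F1B replicates 1, 2 and 3. VIL1, which encodes the microvillus protein villin, had 23, 14 and 210 CPM in GFP and 42.6, 37.5 and 111 CPM in POU5F1B replicates 1, 2 and 3. In the same 2 libraries ALB, a hepatocyte marker, had 43 and 37 counts against 0 in the others, while the remaining hepatocyte markers had at most 4 counts in any library. With 1 such library per group, the shift is a description of these libraries, and what sets them apart was not tested.

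**Figure D4:**
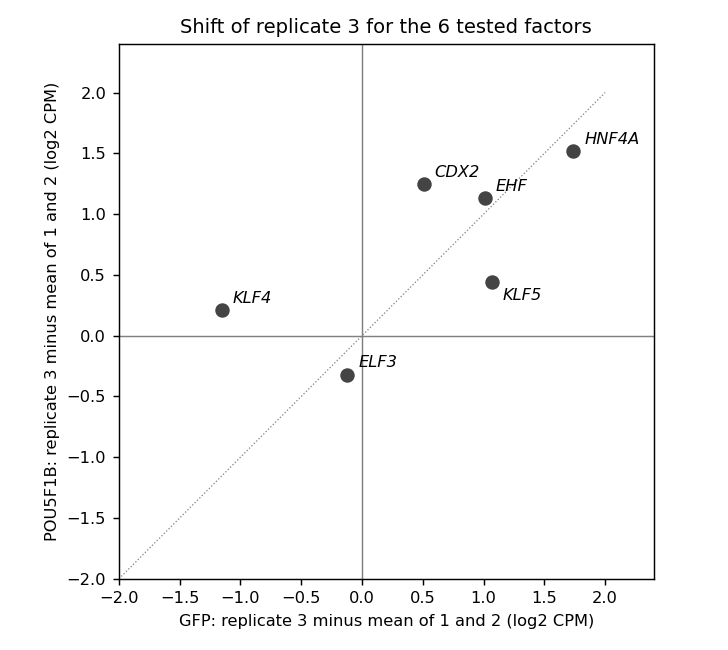
Difference between replicate 3 and the mean of replicates 1 and 2 on the log2 CPM scale, for GFP cells (horizontal axis) and POU5F1B cells (vertical axis), with 1 point for each of the 6 tested factors; the dotted line marks equal shifts. HNF4A lies at 1.74 and 1.52 and EHF at 1.01 and 1.13, whereas ELF3 lies near the origin and KLF4 is lower in GFP replicate 3 only.

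Other regulators of intestinal and epithelial identity were taken from a list of 40 genes, of which 39 were found and 23 tested. With limma voom over all libraries 0 passed, the same as for all genes; 17 of the 23 were higher and 6 lower with POU5F1B, with a median log2 fold change of 0.62, where 46.9% of all tested genes were higher and their median was -0.02. The direction was not shared by all libraries: within replicate numbers 1 and 2, 16 and 17 of the 23 were higher with POU5F1B, whereas within replicate number 3 only 7 were higher and 16 lower, against 50.5% of all tested genes higher there. Of the 10 tested epithelial markers, which share ESRP1 with this list, 0 passed and 9 were higher, with a median of 0.42, but within replicate number 3 it was 4 higher and 6 lower. The most abundant regulators per length were HES1, SOX9, VDR and ESRP1. SOX9, a factor of crypt base cells, had 179 ± 18.5 CPM with GFP and 180 ± 23.4 CPM with POU5F1B (SD, n = 3), with a 95% interval of -0.33 to 0.35 for the log2 fold change. HES1, the Notch effector, had 198, 161 and 16.9 CPM in GFP replicates 1, 2 and 3 and 133 to 204 CPM in POU5F1B cells. It was low in GFP replicate 3 alone.

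The smallest unadjusted p-values in this list were those of PRDM1, FOXA2, VDR and GRHL1. PRDM1, a repressor of the fetal intestine, had 35.4 ± 4.91 CPM with GFP and 13.3 ± 4.66 CPM with POU5F1B (a log2 difference of -1.45 ± 0.26 SE; adjusted p = 0.185 from limma voom). FOXA2, a pioneer factor of endoderm, had 5.38 ± 0.356 and 2.01 ± 0.917 CPM (-1.48 ± 0.33 SE; adjusted p = 0.215). VDR, the vitamin D receptor, had 47.8 ± 10.1 and 82.1 ± 10.2 CPM (0.79 ± 0.19 SE; adjusted p = 0.236). For GRHL1, a grainyhead-like factor of epithelia, the log2 fold change was 0.84 ± 0.29 (SE; adjusted p = 0.349). Groups did not overlap for 4 of the 23, against 19.4% of all tested genes, a like share. These were PRDM1 and FOXA2, lower with POU5F1B, and VDR and ESRP2, higher with POU5F1B.

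With replicates 1 and 2 only, 11 of the 23 regulators passed, 8 higher and 3 lower, where 3.21% of all genes were past the threshold on the higher and 5.15% on the lower side. Those that rose included ESRP1 (2.09) and ESRP2 (1.17), splicing regulators of epithelia, and OVOL2 (1.59), a repressor of mesenchymal genes. PRDM1 (-1.67), FOXA2 (-1.79) and ONECUT2 (-1.30) fell. In the remaining pair, ESRP1 had 80.2 CPM in GFP replicate 3 and 44.9 CPM in POU5F1B replicate 3, the reverse of the order in replicates 1 and 2 (14 to 16.6 against 62.9 to 68.1). EHF and ELF3 kept their order between the replicate 3 libraries, and so did PRDM1 (a log2 difference of -1.03), FOXA2 (-0.86) and ONECUT2 (-1.83). OVOL2 (-0.12) did not, and ESRP2 (0.04) was near 0. COL1A1 was high in GFP replicates 1 and 2 and had at most 16.8 CPM in the other 4 libraries. Its part in these differences was not tested.

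Genes described as targets of the 8 factors were then read from a list of 28, of which 9 could be tested. Several of the listed targets were not detectable at this depth: SI, CA1, APOA4, APOB, APOC3 and TTR had 0 counts in all 6 libraries. With limma voom 0 of the 9 passed, and 7 were higher and 2 lower, with a median of 0.51 against -0.02 for all tested genes. Within replicate numbers 1 and 2, 7 were higher and 2 lower in each, and within number 3, 5 were higher and 4 lower. CDH1, CLDN7 and VIL1 are also among the tested epithelial markers, so the lists are not separate evidence. CDH1, E-cadherin, had 33.6, 30.1 and 72.6 CPM in GFP replicates 1, 2 and 3 and 164, 158 and 98.1 CPM in POU5F1B replicates 1, 2 and 3. The groups did not overlap for 2 of the 9, CDH1 and CCND1, against 19.4% of all tested genes, a like share. For CDH1 the log2 difference was 1.71 ± 0.36 SE, with an adjusted p of 0.207 from limma voom. CCND1, which encodes cyclin D1, was the most abundant target and did not overlap either, with 1103 ± 360 CPM with GFP and 1974 ± 396 CPM with POU5F1B (0.88 ± 0.28 SE; adjusted p = 0.321). CLDN7, claudin 7 of epithelial junctions, had 36.6 to 152 CPM in GFP and 111 to 186 CPM in POU5F1B libraries (1.21 ± 0.50 SE; adjusted p = 0.411). SERPINA1, an inhibitor of proteases, had 70.7 to 144 and 115 to 262 CPM (0.91 ± 0.39 SE; adjusted p = 0.428). CDKN1A, the cell cycle inhibitor p21, had 62.8 ± 20.3 and 83.4 ± 8.94 CPM (adjusted p = 0.518). With replicates 1 and 2 only, 5 of the 9 passed, 4 higher (CDH1, CLDN7, VIL1 and SERPINA1) and 1 lower (ABCB1), against 3.21% of all genes higher and 5.15% lower in that fit. Within replicate number 3 the log2 difference of CLDN7 was -0.44 and that of VIL1 -0.92, opposite in sign to replicates 1 and 2, while CDH1 (0.43), SERPINA1 (0.70) and ABCB1 (-1.93) kept their sign.

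The relatives of the 8 factors were compared with them by family. Of 27 relatives 15 were tested and 0 passed with limma voom, with a median of 0.07, and 9 were higher and 6 lower. The most abundant per length were KLF10 (20.4 CPM per kilobase), KLF6 (16.7), ELF1 (15.0) and ELF4 (14.3), as means over the 6 libraries. Among the broadly expressed ETS relatives, ELF1 had 68.6 ± 2.94 CPM with GFP and 64.7 ± 3.59 CPM with POU5F1B (95% interval of the log2 fold change -0.35 to 0.18). ELF4 had 58.1 ± 11.1 and 92.0 ± 20.9 CPM (SD, n = 3; log2 difference 0.65 ± 0.23 SE; adjusted p = 0.351 from limma voom). ELF5 and SPDEF, epithelial ETS factors like EHF and ELF3, had at most 1 count in a library. KLF2 had 2.26 to 4.37 CPM in GFP and 9.72 to 13.3 CPM in POU5F1B libraries (1.93 ± 0.29 SE; adjusted p = 0.185). KLF12, a repressor of the same family, had 27.7 to 35.5 and 12.3 to 15.9 CPM (-1.21 ± 0.18 SE; adjusted p = 0.185). With replicates 1 and 2 only, 2 of the 15 relatives passed, KLF2 (1.85) higher and KLF12 (-1.07) lower. In that fit 3.21% of all genes passed on the higher and 5.15% on the lower side. With all 6 libraries both KLF2 and KLF12 had a smaller unadjusted p from limma voom than ELF3 and EHF. KLF6 had 83.6 ± 17.5 and 121 ± 26.5 CPM (0.53 ± 0.23 SE; adjusted p = 0.425). Relatives of GATA6 were detected as well, since GATA2 had 244 to 610 counts in a library, while GATA4 and GATA5, the other GATA factors of gut endoderm, and CDX4 had 0 counts in all 6.

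The genes whose profile over the 6 libraries was nearest to each factor were listed as a description, by the smallest root mean square difference between log2 CPM profiles centred on their means. For EHF they were TMEM178B (0.188) and SESN3 (0.271), and SESN3, a stress-induced sestrin, had 36.0 to 55.1 CPM in GFP and 11.0 to 19.9 CPM in POU5F1B libraries. ELF3 lay nearest to FAM174B (0.0923), which had 5.9 to 6.3 CPM in GFP and 10.7 to 13.2 CPM in POU5F1B libraries. HNF4A lay nearest to KCNAB2 (0.133) and ABHD2 (0.139), both high in the replicate 3 libraries. CDX2 lay nearest to ZSWIM5 (0.163) and FOXO1 (0.166), KLF5 to HOXA10 (0.0841) and LRP6 (0.0883), and KLF4 to ACTA2 (0.0589) and LPIN3 (0.0661). The factors spanned 1.2 to 2.92 on the log2 CPM scale over the 6 libraries, and a factor with a small span has many near genes.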

How the data were processed

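Poly(A) RNA of 6 SW480 libraries was analysed. The authors deposited whole-number read counts per Ensembl gene, with no normalization, 1 table per library. Per the study's methods, reads were mapped to hg19 with hisat2 and counted with featureCounts on genes and transposable elements together, keeping uniquely mapped reads. The strand setting and annotation release were not given in the sources used here, so counts of overlapping genes on opposite strands are uncertain, and reads shared by close paralogs are lost. A symbol was found for 87.4% of 63677 identifiers, and 148 of 150 list entries were matched. Coordinates and exon lengths are from a GENCODE annotation on GRCh37, the same build as hg19.

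Samples were grouped, and numbered, by their titles. The filter filterByExpr of edgeR 4.0.16 left 14286 genes, with TMM scaling of library sizes. The 2 groups were compared with limma 3.58.1 on voom weights (R 4.3.3), as in the study's methods, two-sided, and p-values were adjusted by Benjamini-Hochberg across the 14286 genes. A gene passed at an adjusted p under 0.05 and a fold change above 2. Log2 CPM used a prior count of 2. Alternatives were edgeR's quasi-likelihood test, DESeq2 1.42.0, quality weights, 3 other scalings, 2 other filters, a replicate block, sums with antisense genes, replicates 1 and 2 only, and each library left out in turn. The depth was 10767947 to 12787637 counts, and a floor of 3 counts was 0.228 to 0.277 CPM. The tests were tried on simulated counts, which held no shift of the replicate 3 libraries. That trial cannot tell how the tests act on such a shift.

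The members, gene lists and alternatives were chosen with earlier results of these data known. Genes named are the 8 factors, POU5F1B, the 4 smallest unadjusted p-values and 4 highest levels per length in the lists of regulators, targets and relatives, and the 2 nearest profiles of each tested factor spanning over 1 on the log2 CPM scale; overlapping antisense genes; and list genes past the threshold in replicates 1 and 2. Others were chosen after their values were seen. Some genes that the rule names are not reported here. Protein sequences were not used here.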

Additional observations from a re-analysis of the deposited data

How the results depend on the processing

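As reported, 0 genes, 0 factors, 0 other regulators and 0 targets passed. The counts of all genes, factors, regulators and targets were 232, 2, 2 and 1 with DESeq2, 1077, 2, 11 and 3 with sample quality weights, and 1194, 2, 11 and 5 with replicates 1 and 2 only. For all genes they were also 4 with no filter and 1 with the replicate block. Leaving out 1 library gave 0 to 595 genes, 0 to 1 factors, 0 to 8 regulators and 0 to 2 targets, the highest of each without GFP replicate 3, where EHF passed, and 5 genes without POU5F1B replicate 3. DESeq2 (-1.82 for EHF, 1.01 for ELF3), quality weights (-1.70 and 1.11) and replicates 1 and 2 only (-1.88 and 1.06) called both genes. The quality weight was 0.111 for GFP replicate 3 and 0.575 for POU5F1B replicate 3, against 1.23 to 2.79 for the other libraries. That fit thus also rested mostly on replicates 1 and 2. Across the fits that left out 1 library, EHF ranged from -2.20 to -1.50 and ELF3 from 0.83 to 1.11, CDX2 from -0.74 to -0.09, KLF5 from -0.60 to -0.06, HNF4A from -0.58 to 0.49 and KLF4 from -0.13 to 0.46. HNF4A changed sign with quality weights (0.20) and KLF4 with quality weights (-0.11) and replicates 1 and 2 only (-0.20). EHF, ELF3, CDX2 and KLF5 kept their direction in each setting run. The causes were not tested.

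Same-numbered libraries deviated from their group means with correlations across genes of 0.242, 0.0883 and 0.165, so the numbers were not taken to pair the libraries. Differences within a replicate number are therefore descriptions of single libraries. With the replicate block the log2 fold changes were -1.83 for EHF (limma voom adjusted p = 0.128) and 1.00 for ELF3 (0.269), and no factor passed. CDX1 and GATA6 have no test as reported; with no filter CDX1 was at -0.72 (limma voom adjusted p = 0.761) and GATA6 at -0.38 (0.871), from at most 9 counts in a library, which sets the limit of what can be said of them.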
